A study of Mus musculus with 8 samples.

Results

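Heat shock and chaperone genes were compared between hearts of the 2 sexes in C57BL/6 mice, a common laboratory inbred strain, aged 2 or 8 months. The genes were taken by symbol from the deposited table: every probe named for a single gene whose symbol starts with Hsp (followed by a, b, d, e, h or a digit), Dnaj, Cct with a digit, Hsf, Bag with a digit, Pdia or St13, or is Cryab, Stip1, Ahsa1, Tcp1 or Canx. This gave 57 probes for 49 genes, of 6106 genes with a single symbol in the table. The rule uses no measured value, but it was chosen with earlier results of these data known. Heat shock factors, Tcp1 and Canx were not analysed here. Total RNA of whole hearts was pooled from 6 mice per group, so that the study had 4 pools: females and males at 2 months and females and males at 8 months, with no treatment or transgene in the labels. The female pool and the male pool of the same age were hybridised together, in Cy3 and Cy5, on 4 cDNA arrays per age, and the female pool was in Cy3 on replicates 1 and 3 and in Cy5 on replicates 2 and 4. The 4 arrays of an age therefore repeat the measurement of the same pair of pools, and an SD below is the spread of these technical repeats, not of animals. All values are log2 ratios of the female over the male pool, so that a positive value means more signal in the female pool. The table holds ratios only, so neither the level of a gene nor its signal over background is known, and fewer cells of a type cannot be told apart from less RNA per cell.

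Chaperones hold unfinished or damaged proteins, help them fold and pass them on for degradation when folding fails. Hsp70 proteins bind short hydrophobic stretches and are driven through their ATP cycle by J-domain proteins (the Dnaj genes) and by exchange factors such as Hsp110 and some BAG proteins, while Hsp90 finishes the folding of kinases and steroid receptors. In the cytosol the chaperonin ring folds actin and tubulin, in the endoplasmic reticulum Hspa5 and the disulfide isomerases handle secreted proteins, and in the mitochondrion Hspa9 pulls in and folds imported ones. Heart muscle is rich in small heat shock proteins such as Cryab, which protect desmin and the sarcomere. Stress in the cytosol induces many of these genes through heat shock factor binding to repeats of the unit GAA or its reverse, and stress in the endoplasmic reticulum induces others through the ER stress response element.

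The promoter sequences of genes on which the results below turn show how these elements differ between the branches. They are the RefSeq sequences on GRCm38.p6, where 38 of the 49 genes had an entry, and they are given 5′ to 3′ on the strand of the gene, with the matched element in capitals. Hspa5 (chr2:34771840-34772089, plus strand) and Hsp90b1 (chr10:86705445-86705694, minus strand) are shown with the 250 bases before the start, and Hspa1a (chr17:34972157-34972406, minus strand) likewise. For Dnajc3 (chr14:118937821-118937850, plus strand), Hspe1 (chr1:55088053-55088082, plus strand) and Hsph1 (chr5:149636351-149636380, minus strand) the 30 bases around the element are shown.
Hspa5: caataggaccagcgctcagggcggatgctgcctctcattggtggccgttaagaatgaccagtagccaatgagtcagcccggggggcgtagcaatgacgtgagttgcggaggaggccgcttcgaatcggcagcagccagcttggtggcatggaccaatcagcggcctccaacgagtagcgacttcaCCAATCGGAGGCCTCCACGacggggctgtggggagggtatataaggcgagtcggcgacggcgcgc
Hsp90b1: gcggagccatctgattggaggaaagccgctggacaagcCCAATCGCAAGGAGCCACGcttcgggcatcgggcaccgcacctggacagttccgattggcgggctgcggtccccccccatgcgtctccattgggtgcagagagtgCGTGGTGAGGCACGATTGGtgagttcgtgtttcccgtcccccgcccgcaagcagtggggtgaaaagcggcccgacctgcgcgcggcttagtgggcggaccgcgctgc
Dnajc3: ccacaaCCAATCAGCGCCAACCACGacccg
Hspa1a: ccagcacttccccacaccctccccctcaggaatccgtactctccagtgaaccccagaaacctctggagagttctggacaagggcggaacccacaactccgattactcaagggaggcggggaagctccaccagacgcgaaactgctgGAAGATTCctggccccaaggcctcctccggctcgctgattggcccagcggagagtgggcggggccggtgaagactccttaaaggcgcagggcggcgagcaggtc
Hspe1: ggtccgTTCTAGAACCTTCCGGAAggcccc
Hsph1: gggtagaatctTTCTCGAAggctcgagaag
The search covered both strands of the 250 bases before each start. The ER stress response element was searched as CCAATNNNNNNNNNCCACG and its reverse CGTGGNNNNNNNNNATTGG, which occurred in 0.113% of 32851 promoter windows. It was found for 3 of the 38 chaperone genes (7.89%, against 0.13% of 27025 genes), Dnajc3, Hsp90b1 and Hspa5, and Hsp90b1 had 2 matches. A heat shock element of 3 units was searched as GAANNTTCNNGAA or TTCNNGAANNTTC, which occurred in 0.466% of the windows and 0.514% of the genes and was found for Dnajb6 and Hspe1; the Hspe1 stretch holds 2 overlapping matches. The form with 2 units, GAANNTTC or TTCNNGAA, lies within every match of 3 units and occurred in 12.8% of the windows. It was found for 8 of the 38 genes (21.1%, against 14.5% of all genes), Cct5, Dnaja1, Dnaja4, Dnajb4, Dnajb6, Hspa1a, Hspe1 and Hsph1. A match describes these letters and is not a measured binding site.

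No heat shock or chaperone gene was called different between the sexes over both ages. Of the 49 genes, 48 had enough values to be tested; Dnajc22 had values only at 2 months, with a mean of 0.03. In limma's test on the 2 age values (n = 2 pairs of pools, two-sided, Benjamini-Hochberg over 7812 rows), 0 of the 48 genes had an adjusted p below 0.05, against 0.0896% of all rows, and their adjusted p-values ran from 0.385 to 0.999. At an unadjusted p below 0.05 the count was 1, Hspa12a, against 10.4% of all rows. The ratios were small: averaged over both ages, 47 of the 48 genes were within 1.2-fold, against 81.5% of all rows. The intervals rest on the spread between the 2 age values, not on that of arrays or single animals. With only 2 values per gene, limma draws that spread strongly toward a value shared by all rows. For Dnajc30, whose age values differed by -0.0014, the SE was still 0.12. A width therefore says little about the spread of the gene itself. The intervals do not bound a difference at a single age. For 46 of the 48 genes the 95% interval of limma lay inside 1.5-fold in either direction, with half-widths of 0.30 to 0.43, and the exceptions were Hspa12a and the pseudogene Hspd1-ps3.

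**Figure D1:**
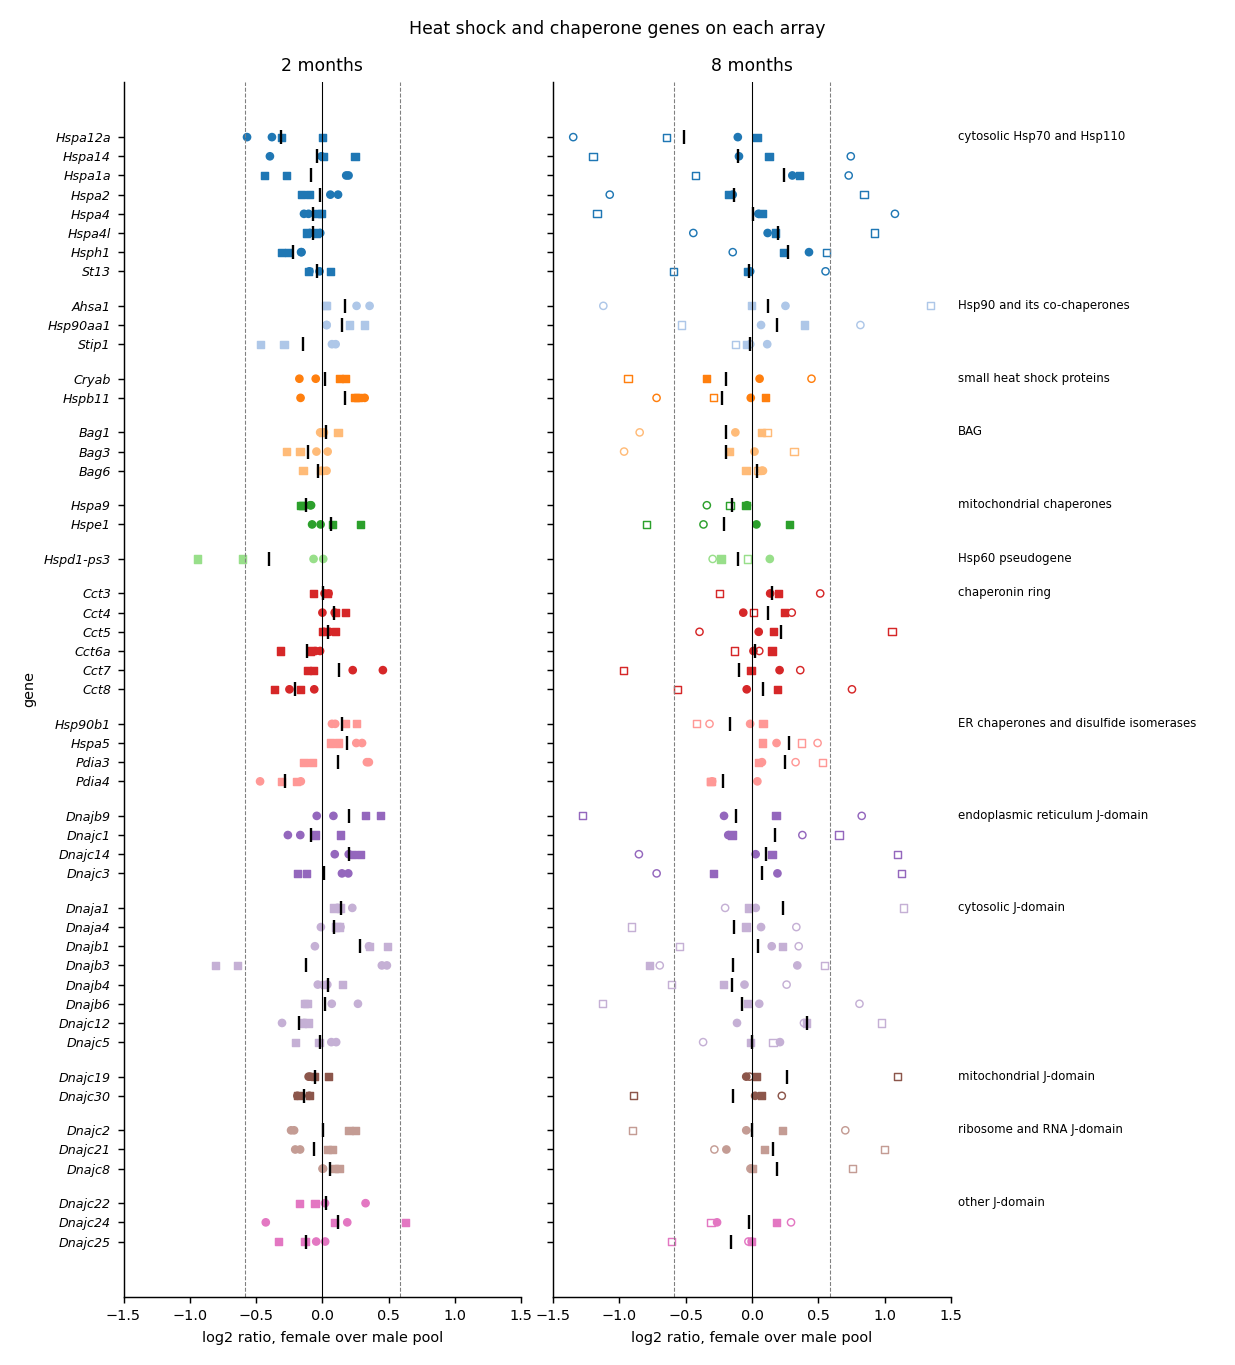
Log2 ratio of the female over the male pool (horizontal axis) of each heat shock and chaperone gene (rows, coloured by group) on each array at 2 months (left) and 8 months (right). Circles mark arrays with the female pool in Cy3 and squares those with it in Cy5, open symbols are replicates 1 and 2 at 8 months, black ticks are the dye-balanced means and dashed lines mark 1.5-fold; none of the ticks lies beyond a dashed line, and the open symbols spread widest.

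At either age alone the genes also stayed close to an even ratio. At 2 months their values ran from -0.40 to 0.29 with 24 of 48 positive, and 44 were within 1.2-fold (91.7%, against 75.9% of all rows). At 8 months they ran from -0.52 to 0.42 with 23 of 48 positive, and 43 were within 1.2-fold (89.6%, against 69.3%). With 1 pair of pools at an age there is no test across animals, and a rule of size described the genes instead: a ratio of 1.5-fold or more whose sign was shared by every array of that age. None of the 48 genes met this at 2 months, where 4.17% of all rows did, and none at 8 months, where 2.98% did. The sign was the same on all 4 arrays at 2 months for 9 genes on the positive side, against 17.7% of all rows, and for 9 genes on the negative side, against 18.1%. At 8 months it was positive on all 4 arrays for Hspa5 and Pdia3, against 5.79% of all rows. It was negative for Hspa9 and, by the mean of its 2 probes, for Dnajc25, against 4.85%. These shares are close to those of the whole table, and none of these 4 genes kept 1 sign on all 8-month arrays once the drift described next was removed.

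The 8-month values had the wider spread, which lay on 2 arrays. On replicates 1 and 2 at 8 months the ratios drifted with the probe's number on the array and their running median had an SD of 0.51 and 0.82, against 0.032 to 0.071 on the other 6 arrays. On these arrays the chaperone genes had interquartile ranges of 0.77 and 1.19 against 0.16 to 0.32 elsewhere. Across the 48 genes these arrays, which carry opposite dye orientations, correlated at -0.56, a description over genes of shared pools. The mean of replicates 3 and 4 is therefore given beside 8-month means below. Counts over the 6 arrays without the drift were added after the data were seen. On replicates 3 and 4 alone, 46 of the 48 genes were within 1.2-fold (95.8%, against 80.1% of all rows), and 30 were positive. Of the sex-linked transcripts, Xist was positive and Eif2s3y and Kdm5d were negative on all 8 arrays. The direction of the ratio was inferred in part from such probes. Only their agreement across arrays and dye orientations could therefore have failed.

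Hspa5, the main Hsp70 of the endoplasmic reticulum and a sensor of unfolded protein there, was the only gene with a positive ratio on all 8 arrays, against 1.8% of all rows. Its ratios were 0.26, 0.12, 0.30 and 0.06 on replicates 1 to 4 at 2 months, and 0.49, 0.37, 0.18 and 0.08 at 8 months. Every array thus showed more Hspa5 signal from the female pool, by 1.22-fold or less on average at each age. The mean was 0.18 ± 0.11 (SD, 4 arrays) at 2 months and 0.28 ± 0.19 at 8 months, or 0.13 on replicates 3 and 4. With the drift removed replicate 2 at 8 months was at -0.44 and the 8-month mean was 0.11, so the shared sign on all 8 arrays was lost. Over both ages the mean was 0.23 (n = 2 pairs of pools, 95% interval -0.08 to 0.54, adjusted p 0.618 in limma), and the interval reached to both sides of an even ratio.

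The other proteins of the endoplasmic reticulum did not share one direction. Pdia4, a disulfide isomerase with which Hspa5 forms complexes, had ratios of -0.47, -0.19, -0.16 and -0.31 at 2 months and of -0.30, -0.31, 0.04 and -0.31 at 8 months. It was lower in the female pool on 7 of the 8 arrays, the opposite side from Hspa5, with means of -0.28 ± 0.14 and -0.22 ± 0.17 (-0.13 on replicates 3 and 4) and an adjusted p of 0.575 in limma. Hsp90b1, the Hsp90 of the endoplasmic reticulum, was at 0.10, 0.25, 0.07 and 0.17 at 2 months and at -0.32, -0.42, -0.01 and 0.08 at 8 months. It was thus positive on all arrays of the younger age and on 1 of 4 of the older, where replicates 3 and 4 had a mean of 0.03. Pdia3, which folds glycoproteins with the lectin chaperones, followed the dye at 2 months, at 0.34 and 0.35 with the female pool in Cy3 and at -0.07 and -0.14 in Cy5, and was positive on all 4 arrays at 8 months with a mean of 0.25 ± 0.23. That mean was 0.06 on replicates 3 and 4, and with the drift removed it was 0.08 with replicate 2 at -0.29. Of the 3 genes with an ER stress response element, Hspa5 and Hsp90b1 had the values above, and Dnajc3, a J-domain protein that also restrains the kinase Eif2ak3, was at 0.01 ± 0.19 at 2 months and 0.08 ± 0.79 at 8 months (-0.05 on replicates 3 and 4). Of the remaining J-domain genes of this compartment, Dnajb9 was at 0.20 ± 0.22 at 2 months and -0.12 ± 0.88 at 8 months, or -0.02 on replicates 3 and 4. Dnajc14 was at 0.20 ± 0.08 and 0.11 ± 0.80, or 0.09 on replicates 3 and 4. Dnajc1 was at -0.09 ± 0.17 and 0.18 ± 0.41, and on replicates 3 and 4 it turned to -0.16; its 2 probes had means of 0.08 and -0.25 at 2 months. Dnajc14 was positive on all 6 arrays without the drift, and the other 3 changed sign among those arrays.

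The J-domain genes had the longest list, with 19 tested. Those of the cytosol ran from -0.17 to 0.29 at 2 months, with 5 of 8 positive, and from -0.15 to 0.42 at 8 months, with 3 of 8 positive. Dnajb1, the stress-inducible partner of Hsp70, was the highest of all 48 genes at 2 months, with ratios of 0.35, 0.36, -0.06 and 0.49. It was positive on 3 of 4 arrays, with a mean of 0.29 ± 0.24 (1.22-fold), and its 8-month mean was 0.05 ± 0.40, or 0.19 on replicates 3 and 4. Dnaja1, the farnesylated J-domain partner of Hsp70, was at 0.23, 0.09, 0.11 and 0.14 at 2 months, all positive, and at 0.03 and -0.03 on replicates 3 and 4 at 8 months. Dnajc12, a co-chaperone of the aromatic amino acid hydroxylases, had the highest positive 8-month mean, 0.42 ± 0.45, with ratios of 0.39, 0.98, -0.11 and 0.41 after -0.14, -0.11, -0.30 and -0.15 at 2 months. All 4 younger arrays were negative and 3 of 4 older ones positive; replicate 3 at 8 months lay among the younger values, so the ages overlapped, and the mean of replicates 3 and 4 was 0.15, below those of Hsph1 and Hspa1a. Dnajc30, a mitochondrial J-domain protein, was negative on all 4 arrays at 2 months (-0.14 ± 0.05), at -0.14 ± 0.51 at 8 months and at 0.05 on replicates 3 and 4 at 8 months. The remaining cytosolic genes, Dnaja4, Dnajb3, Dnajb4, Dnajb6 and Dnajc5, had means of -0.13 to 0.09 at 2 months and of -0.15 to -0.0037 at 8 months, or -0.22 to 0.10 on replicates 3 and 4. Dnajc24, which serves the diphthamide modification of a translation factor, changed sign between arrays at both ages (0.12 ± 0.43 and -0.02 ± 0.31, or -0.04 on replicates 3 and 4). Dnajc25, by the mean of its 2 probes, was below 0 on all 4 arrays at 8 months, where replicates 3 and 4 had a mean of -0.0026. The probes disagreed at that age. Probe 6292 was at 0.21, -0.86, 0.09 and 0.15, and probe 10322 at -0.26, -0.36, -0.09 and -0.15. Their 2-month means were 0.05 and -0.29. The other J-domain genes of mitochondria, the ribosome and RNA processing, Dnajc19, Dnajc2, Dnajc21 and Dnajc8, had 2-month means of -0.07 to 0.06. Their 8-month means ran from -0.0020 to 0.27, and those of replicates 3 and 4 from -0.05 to 0.09.

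The cytosolic Hsp70 and Hsp110 genes, counted with the Hsp70-binding protein St13, had 2-month means below 0 in 8 of 8, where 46.4% of all rows were above 0, with a median of -0.07. Hspa1a is in this count by the mean of its probes, of which 1 was above 0 on all 4 arrays. At 8 months 4 of the 8 were above 0, with a median of -0.0068, and on replicates 3 and 4 there were 5. Hspa12a, a distant Hsp70 relative, was the lowest, with ratios of -0.38, -0.31, -0.57 and 0.0024 at 2 months and of -1.35, -0.65, -0.11 and 0.04 at 8 months. The 2 drifting arrays held the lowest of the older values. Over both ages the mean was -0.41 (95% interval -0.74 to -0.09, n = 2 pairs of pools, adjusted p 0.385 in limma), but the 8-month mean of -0.52 ± 0.63 became -0.04 on replicates 3 and 4. Of the other genes, Hspa4 (-0.07 ± 0.06 at 2 months) and Hspa4l (-0.07 ± 0.05) are exchange factors of the Hsp110 kind. By the mean of their probes they were negative on all 4 younger arrays and at 0.06 and 0.15 on replicates 3 and 4 at 8 months. Single probes did not all keep that sign at 2 months. Hspa4 probe 7128 was at 0.0040 and 0.03 on replicates 2 and 4, and Hspa4l probe 623 at 0.18 on replicate 4. Hspa4l probe 3574 was positive with the female pool in Cy3 and negative in Cy5. The remaining probe of each gene was negative on all 4 arrays. Hspa14, which works at the ribosome, Hspa2 and St13 had 2-month means of -0.04 to -0.02 and 8-month means of -0.14 to -0.02, or -0.16 to 0.01 on replicates 3 and 4.

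Hsph1, the stress-inducible Hsp110, was the one gene, by its gene mean, whose 8 arrays separated the ages. The share of all rows with such a separation at any size was not counted, so this cannot be set against the whole table. Its ratios were -0.16, -0.31, -0.16 and -0.25 at 2 months and -0.15, 0.56, 0.43 and 0.23 at 8 months. The female pool had less signal on all younger arrays and more on 3 of 4 older ones, and the lowest older array lay 0.01 above the highest younger array. The means were -0.22 ± 0.07 and 0.27 ± 0.31, or 0.33 on replicates 3 and 4, a difference of 0.49 between the ages (1.40-fold), below the 1.5-fold that the rule asked. Without replicate 1 at 8 months Hsph1 passed that rule. By the rule, a difference of 1.5-fold with no overlap of the arrays, none of the 48 genes was listed for the ages, against 3.29% of all rows.

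A wider count of the same kind was made after the drift was seen. With replicates 3 and 4 standing for 8 months, both older arrays lay above all 4 younger ones for 9 of the 48 genes, against 12.9% of all rows, and below them for 2, against 11.9%. The 9 were Hsph1, Hspa1a, Hspa4, Hspa4l, Hspa9, Cct3, Cct6a, Cct8 and Dnajc30, and the 2 were Dnaja1 and Dnajb4. Genes with several probes entered by their mean. Hspa1a probe 5152, Hspa4 probe 7128, Hspa4l probes 623 and 3574 and Dnajb4 probes 5138 and 8302 did not separate in this way. Across the 48 genes the 2-month and 8-month values correlated at 0.18, and across all rows at 0.29, a description in which probes share arrays and labelling.

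**Figure D2:**
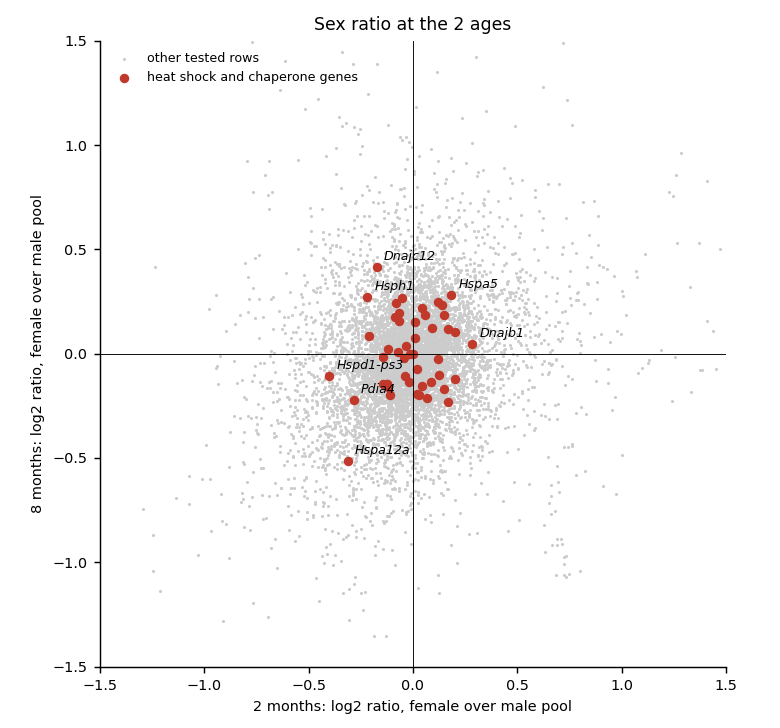
Dye-balanced log2 ratio of the female over the male pool at 2 months (horizontal axis) and at 8 months (vertical axis); red points are the 48 heat shock and chaperone genes, grey points the other tested rows, and 66 rows lie outside the axes. The red points sit within 0.52 of 0 on both axes, with Hspa12a the lowest at 8 months and Dnajc12 the highest.

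Hspa1a, the stress-inducible Hsp70, was measured by 2 probes that disagreed. Probe 9515 had ratios of 0.30, 0.12, 0.26 and 0.09 at 2 months and of 0.98, 0.46, 0.41 and 0.89 at 8 months, positive on all 8 arrays. All older values lay above all younger ones, and the share of all probes with such a separation was not counted. The means were 0.19 ± 0.10 (1.14-fold) and 0.68 ± 0.29 (1.61-fold), and the 8-month mean was 0.65 on replicates 3 and 4 and 0.80 with the drift removed. Probe 5152 had ratios of 0.10, -0.67, 0.10 and -0.96 at 2 months and of 0.48, -1.31, 0.20 and -0.18 at 8 months. It was positive on every array with the female pool in Cy3 and negative on every array with it in Cy5, with means of -0.36 ± 0.54 and -0.20 ± 0.79, or 0.01 on replicates 3 and 4. With each probe taken as a row, probe 9515 was the only one of 56 chaperone probes past the 8-month rule, against 3% of all probes, and 1 of 2, with that of Hspa5, that were positive on all 8 arrays, against 1.76%. Its mean over both ages of 0.44 had an adjusted p of 0.445 in limma (n = 2 pairs of pools), and the mean of both probes, the value used for the gene, was -0.08 ± 0.32 at 2 months and 0.24 ± 0.48 at 8 months (0.33 on replicates 3 and 4). Hspa1a and Hspa1b are near-identical copies, and a cDNA probe may bind both, so the identity of either signal is uncertain.

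**Figure D3:**
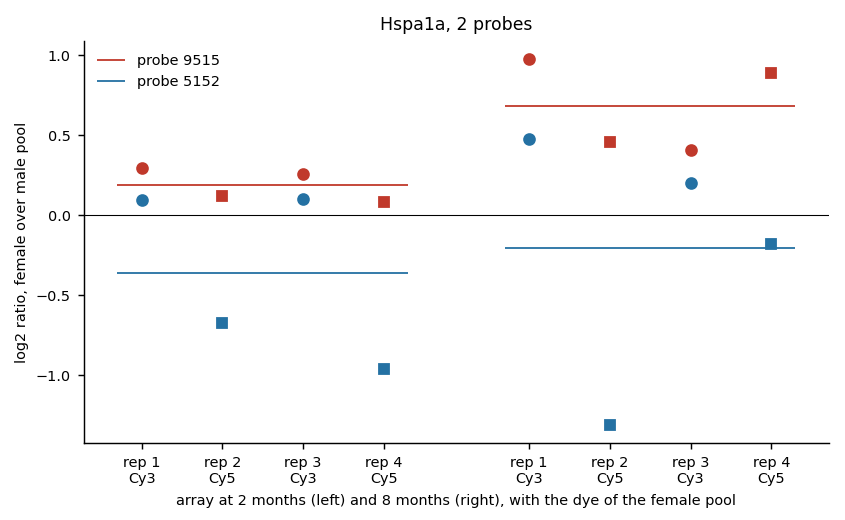
Log2 ratio of the female over the male pool (vertical axis) for the 2 probes of Hspa1a on each array at 2 months (left) and 8 months (right), with the dye of the female pool under each array. Lines are the dye-balanced means of an age; probe 9515 (red) is above 0 on all 8 arrays, and probe 5152 (blue) is above 0 where the female pool is in Cy3 (circles) and below it in Cy5 (squares).

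The arrays of the 2 dye orientations separated for these genes about as often as for the whole table. At 2 months they did not overlap for 34 of the 48 genes (70.8%), against 65.7% of all rows. With 2 arrays per orientation such a separation can also arise without an effect of the dye. Dnajb3, a J-domain gene best known from testis, was at 0.45 and 0.49 with the female pool in Cy3 and at -0.64 and -0.80 in Cy5. Hspd1-ps3, a processed copy of the Hsp60 gene Hspd1 whose probe may also bind Hspd1, was at -0.07 and 0.0062 in Cy3 and at -0.60 and -0.94 in Cy5. Stip1, which links Hsp70 to Hsp90, was at 0.10 and 0.07 in Cy3 and at -0.29 and -0.47 in Cy5. The dye-balanced means of these 3 genes, in the same order, were -0.13, -0.40 and -0.15, each with an SD larger than itself. Across the 48 genes the orientations correlated at -0.08 at 2 months, and across all rows at 0.13.

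**Figure D4:**
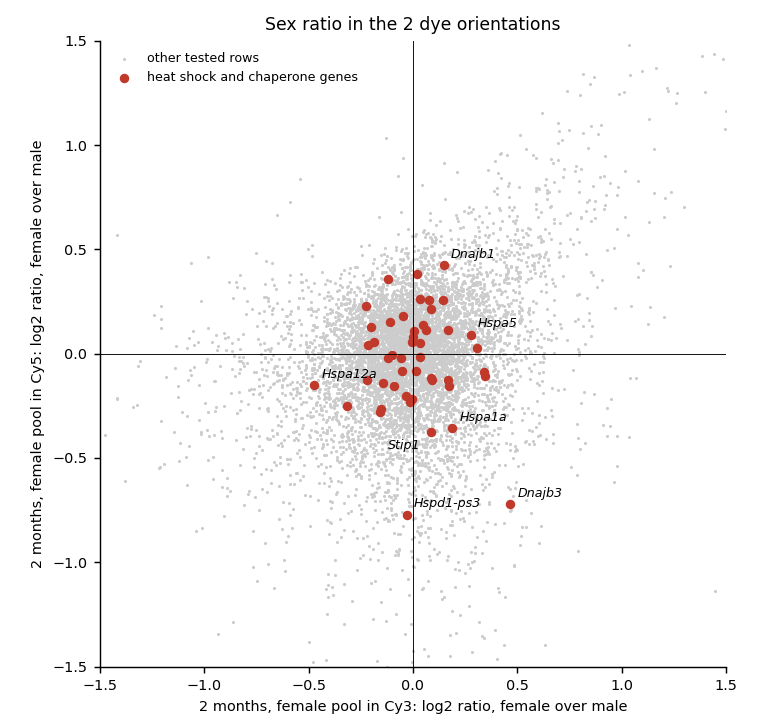
Log2 ratio of the female over the male pool at 2 months, as the mean of the 2 arrays with the female pool in Cy3 (horizontal axis) against the mean of the 2 arrays with it in Cy5 (vertical axis); red points are heat shock and chaperone genes, grey points the other tested rows, and 141 rows lie outside the axes. Dnajb3 and Hspd1-ps3 lie lowest, far from the diagonal.

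In the Hsp90 group, Hsp90aa1, the stress-inducible cytosolic Hsp90, was positive on all 6 arrays without the drift. Its ratios were 0.03, 0.32, 0.03 and 0.20 at 2 months and 0.82, -0.53, 0.07 and 0.40 at 8 months, with means of 0.15 ± 0.14 and 0.19 ± 0.57 (0.23 on replicates 3 and 4) and an adjusted p of 0.735 in limma. Besides Hsp90aa1, the genes positive on those 6 arrays were Cct5, Dnajc14 and Hspa5, 4 of 48 against 6.85% of all rows. Ahsa1, which speeds up the ATPase of Hsp90, was at 0.26, 0.03, 0.36 and 0.02 at 2 months, all positive, and at 0.25 and -0.0037 on replicates 3 and 4 at 8 months. Its values on the drifting arrays were -1.12 and 1.35, and its 8-month mean was 0.12 ± 1.01.

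Hspa9, the Hsp70 of the mitochondrial matrix, was by gene mean the only gene with a negative ratio on all 8 arrays, against 1.56% of all rows. By gene mean it was also the only one negative on the 6 arrays without the drift, against 5.98%. Among single probes, Dnajc25 probe 10322 was negative on all 8 arrays as well, with a mean over both ages of -0.25. The share of all probes with that sign was not counted. The Hspa9 ratios were -0.09, -0.15, -0.09 and -0.16 at 2 months and -0.34, -0.17, -0.04 and -0.05 at 8 months. The means were -0.12 ± 0.04 and -0.15 ± 0.14, with an adjusted p of 0.784 in limma. On replicates 3 and 4 the 8-month mean was -0.04, nearer to 0 than any array at 2 months, and with the drift removed replicate 1 was at 0.03, so the shared sign on all 8 arrays was lost. Hspe1, the lid of the mitochondrial chaperonin and the gene with the heat shock element of 3 units shown above, was at 0.07 ± 0.16 at 2 months and -0.21 ± 0.47 at 8 months, or 0.16 on replicates 3 and 4.

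The chaperonin ring, which folds actin and tubulin, was represented by Cct3, Cct4, Cct5, Cct6a, Cct7 and Cct8. At 2 months 4 of these 6 subunits were positive and the values ran from -0.21 for Cct8 to 0.13 for Cct7, and at 8 months 5 of 6 were positive, from -0.10 for Cct7 to 0.22 for Cct5. On replicates 3 and 4 all 6 were positive, from 0.07 to 0.17, with a median of 0.10 against -0.0016 for all rows. Cct8 was at -0.06, -0.16, -0.25 and -0.36 at 2 months, all negative, and at -0.04 and 0.19 on replicates 3 and 4. Cct5 was at 0.05, 0.10, 0.01 and 0.0047 at 2 months and at 0.05 and 0.16 on replicates 3 and 4, positive but within 1.2-fold.

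Of the small heat shock proteins, Cryab, the abundant one of heart muscle, was at -0.17, 0.13, -0.05 and 0.17 at 2 months and at 0.45, -0.94, 0.06 and -0.35 at 8 months. Its sign changed between arrays at both ages, with means of 0.02 ± 0.16 and -0.19 ± 0.59, or -0.14 on replicates 3 and 4. Hspb11, a part of the transport trains of cilia despite its symbol, was at 0.17 ± 0.22 and -0.23 ± 0.37, and on replicates 3 and 4 it turned to 0.05. The BAG genes had 2-month means of 0.03 for Bag1, -0.11 for Bag3 and -0.03 for Bag6. Their 8-month means ran from -0.20 to 0.04, and those of replicates 3 and 4 from -0.08 to 0.02. Bag3, which with Hsp70 clears damaged sarcomere proteins, was at -0.04, -0.17, 0.04 and -0.27 at 2 months and at 0.02 and -0.17 on replicates 3 and 4 at 8 months, on either side of 0 at both ages.

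Known targets of heat shock factor 1 did not stand together. Of 18 such genes listed, 13 were tested, of which Chordc1 and Fkbp4 are not among the 48; 6 of the 13 were positive at 2 months and 7 at 8 months, with medians of -0.04 and 0.05, and none was called or passed a rule of size. Other chaperones and co-chaperones (34 listed, 18 tested) had medians of -0.02 at both ages and no call. Fkbp5, a co-chaperone of steroid receptors on Hsp90, was the exception in size, at 0.91, 0.71, 0.83 and 0.60 at 2 months and at 0.71 and 0.53 on replicates 3 and 4 at 8 months. It was positive on 7 of 8 arrays, with a 2-month mean of 0.76 ± 0.14, above every one of the 48 genes. Unc45a, a co-chaperone of myosin, passed the rule in the other direction at 2 months, at -0.59 ± 0.58, and was at 0.30 ± 1.08 at 8 months, or 0.32 on replicates 3 and 4. Clpb, a mitochondrial disaggregase, had an 8-month mean of -0.64 ± 1.23 that was -0.12 on replicates 3 and 4. Pfdn4, a prefoldin subunit, was positive on all 4 arrays at 8 months, at 0.56 ± 0.40, or 0.34 on replicates 3 and 4. Of 20 genes of the unfolded protein response 8 were tested, and none was called. Ppp1r15a, a phosphatase subunit that restores translation after stress, had the largest value, at -0.81 ± 1.00 at 2 months and -0.53 ± 1.3 at 8 months, or -0.05 on replicates 3 and 4; its arrays followed the dye at both ages. Manf, a secreted protein induced by stress in the endoplasmic reticulum, was at 0.51 ± 0.12 at 2 months and 0.27 ± 0.57 at 8 months, where replicate 2 was at -0.58, with 0.42 and 0.58 on replicates 3 and 4 at 8 months. Atf6, a transcription factor that acts on the ER stress response element, was negative on all 8 arrays, against 1.56% of all rows. It was at -0.10 ± 0.11 at 2 months, where replicate 3 was at -0.00015 and so barely below 0. At 8 months it was at -0.42 ± 0.20, with -0.25 and -0.30 on replicates 3 and 4. Chac1, which degrades glutathione, passed the rule at 8 months, at -0.61 ± 0.34.

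Some markers of other tissues differed between the pools more than any of the 48 genes, mainly at 2 months. At that age all 6 thymocyte and T cell markers measured were higher in the female pool, by 1.92 to 4.48, and 3 of 5 adipocyte markers passed the rule of size, with Ucp1 at 2.99; at 8 months the medians of these lists were 0.15 and -0.35, or 0.34 and -0.06 on replicates 3 and 4. The 6 cardiomyocyte markers had a median of -0.04 at 2 months and of -0.36 at 8 months, or -0.17 on replicates 3 and 4. Proliferation markers had medians of 0.51 and -0.22, red cell markers 0.18 and 0.71, macrophage markers -0.31 and 0.23, endothelial markers -0.43 and -0.52 and skeletal muscle markers -0.18 and -0.19. Only 2 lung markers were measured, and they parted at 8 months. Sftpc was at 1.76 at 2 months and 3.12 at 8 months, and Scgb1a1 at 0.66 and -0.06. Heat shock and chaperone genes are active in all of these cells, and the part of such differences in the ratios above was not tested.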

How the data were processed

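The deposited values were read as log10 ratios of Cy5 over Cy3 for each probe. That base and direction were inferred from the values and the sex-linked probes. Images were analysed with Feature Extraction 7.1.1, per the labels, which state no further normalization. Exact 0 was treated as missing. The sign was reversed where the female pool carried Cy3, and values were put on the log2 scale. Gene names came from the platform annotation, with symbols brought up to date through RefSeq (GRCm38.p6, all 49 genes matched), and probes of 1 gene were averaged. A row was tested with at least 3 arrays per age and both dye orientations; an age's value is the mean of its orientations. The sexes were compared with limma 3.58.1 in R 4.3.3 on the 2 age values, with Benjamini-Hochberg adjustment over 7812 rows. The p-values thus rest on the spread between 2 pairs of pools, which limma draws toward a value shared by all rows. The fit was tested on simulated data. The members, lists and rules were chosen with earlier results of these data known. The text gives every gene that passed a test or size rule, every group but the J-domain genes gene by gene or by range, of those genes the largest in each direction, and up to 4 of each list outside the rule. The alternatives were the arrays at 8 months, centring, scaling, filters, exact 0, the drift, probes, symbols, each array left out and fits over single arrays.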

Additional observations from a re-analysis of the deposited data

Results flagged for a closer look

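In 5 sets of 4 arrays, 1 array stood apart from the other 3. At 8 months Dnajc19 was at 1.10 and Dnajc8 at 0.75 on replicate 2, above the others, and Dnajc25 was at -0.61 on the same array, below the others; this is a drifting array. At 8 months Pdia4 was at 0.040 on replicate 3, above the other arrays, and at 2 months Hspb11 was at -0.16 on replicate 3, below them. This was 1 of 49 sets at 2 months and 4 of 48 at 8 months, where chance gives about 1 in 20. No gene had opposite signs on all arrays of the 2 ages.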

How the results depend on the processing

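The count of called genes over both ages stayed at 0 in every setting run, and so did the count past 1.5-fold at 2 months. At 8 months the count past 1.5-fold was 1 with each probe as a row (Hspa1a probe 9515), and it ranged from 0 to 1 when single arrays were left out, with Hspa12a listed without replicate 4. For the difference of the ages it ranged from 0 to 1 in the same way, with Dnajc12 listed without replicate 2 at 2 months or replicate 3 at 8 months, and Hsph1 without replicate 1 at 8 months. Same-numbered arrays of the 2 ages correlated at -0.16, -0.10, 0.54 and 0.55 in their deviations and share only a number and a dye. Pairs with the same dye and another number did so too. Replicates 1 and 2 at 2 months correlated at 0.57 with replicates 3 and 4 at 8 months, in that order. Replicates 3 and 4 at 2 months were at -0.02 and -0.04 with the drifting replicates 1 and 2. Pairs of opposite dye with replicates 3 and 4 at 8 months were at -0.58 to -0.53. A fit over single arrays with a replicate block, whose p-values measure technical spread, called 0 of the genes for the mean and 0 for the difference of the ages. The sign of the mean over both ages was the same for 34 of 48 genes with replicates 3 and 4 alone at 8 months, for 36 with arrays scaled to 1 spread, for 37 with the drift removed and for 30 without replicate 2 at 8 months. Among all rows the main test called 7, and 100 and 104 without replicates 1 and 4 at 8 months; the cause was not tested. With 1 pair of pools per age and no intensities, small differences cannot be judged, and a difference at a single age cannot be tested across animals.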
